A study of Bos taurus with 6 samples.

Results

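The Fanconi anaemia genes described here are FANCL, the ubiquitin ligase of the pathway, with its partner enzyme UBE2T, the substrate pair FANCD2 and FANCI, the core complex genes FANCA, FANCC, FANCE, FANCF and FANCG, and the anchor FANCM. They were taken by gene symbol, older synonyms included, from a bovine array of 43794 probes that names 15216 genes. The set was chosen by the treated over control ratio of FANCL, which was below 0 on every array, and the other genes were added for their place in the same pathway. The probe annotation named 14 probes for 9 of the 10 genes, 6 of them for FANCL and 1 for each of the others, and FANCC was not analysed here because no probe was matched to it.

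Granulosa cells, the somatic cells that surround the oocyte and line the follicle, came from follicles of 2 to 6 mm of Holstein cattle and were cultured for 5 days without serum, with FSH and insulin at 10 ng/ml each. FGF8, a secreted ligand of FGF receptors, was added to the treated cells at 10 ng/ml for 2 h, and control cells were untreated and labelled as 0 h. FGF8 therefore cannot be told apart from 2 h more in culture. Both groups carried FSH and insulin, and each of 3 biological replicates filled 2 arrays of opposite dye orientation, 6 arrays in all, with treated and control RNA on each. No source used here says whether the replicates came from different animals or pools. Of 11 granulosa cell markers 9 were above background, with FOXL2 and HSD17B1 below it, against 6 of 8 theca and stroma, 5 of 6 endothelial, 4 of 5 leukocyte and blood and 3 of 7 oocyte markers. In all 27 of the 37 markers were kept, beside 11190 of the 15216 genes named on the array.

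The Fanconi anaemia pathway repairs crosslinks that join both strands of DNA. FANCM recognises the stalled fork and brings in the core complex. In it FANCL, a RING-type ligase, works with UBE2T to place ubiquitin on FANCD2 and FANCI. The marked pair clamps onto DNA and calls in nucleases, translesion polymerases and homologous recombination, and USP1 with WDR48 removes the mark afterwards. These roles are known from human cells and other vertebrate models, where most genes of the pathway are read most strongly in dividing cells.

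Every ratio below is the authors' deposited log2 of FGF8-treated over control RNA, so that a value below 0 is a lower level in treated cells. The arrays of a replicate were averaged, and a mean is given with its SD over the 3 replicates. Agreement was low: across kept probes, replicate means correlated at 0.110 at most, and the swapped arrays of replicate 2 at -0.107. A probe was kept when either RNA gave a signal over the 95th percentile of the negative control spots on 4 or more arrays, and 27210 probes were. All 9 genes with a probe had 1 kept probe.

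FANCL was lower in treated cells on all 6 arrays by its kept probe, EMBV3_06915. The ratios were -1.32 and -0.75 in replicate 1, -0.47 and -0.50 in replicate 2, and -0.55 and -0.63 in replicate 3, the first of each pair with treated RNA in Cy5. Both arrays of replicate 1 lay below all 4 arrays of the other replicates, and the value nearest to 0 was the Cy5 array of replicate 2. The mean was -0.70 ± 0.29 (SD, n = 3), a level 1.63-fold lower in treated cells, from replicate means of -1.04, -0.49 and -0.59. Without replicate 1 the mean was -0.54. As the array names read, replicate 1 lay on slides of its own, but no label states the slide. The sign on every array is what chose FANCL, so these values are a description and carry no test.

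The same order held in the scanner's own intensities, before any normalization. The deposited ratios matched these same intensities after normalization, so this order is no independent support for the choice of FANCL. In replicate 1 the net intensity of the FANCL spot, median foreground minus local background, was 2208 in treated against 5608 in control RNA with treated RNA in Cy5, and 2357 against 3324 with the dyes swapped. In replicate 2 it was 2072 against 3273 and 2165 against 2593, and in replicate 3 it was 1419 against 2107 and 1295 against 1675. Treated RNA was dimmer within each of the 6 arrays, although the ranges over arrays overlapped, from 1295 to 2357 in treated and from 1675 to 5608 in control RNA. In a culture of many cells, a lower level in each cell and a smaller share of cells with the transcript cannot be told apart.

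**Figure D1:**
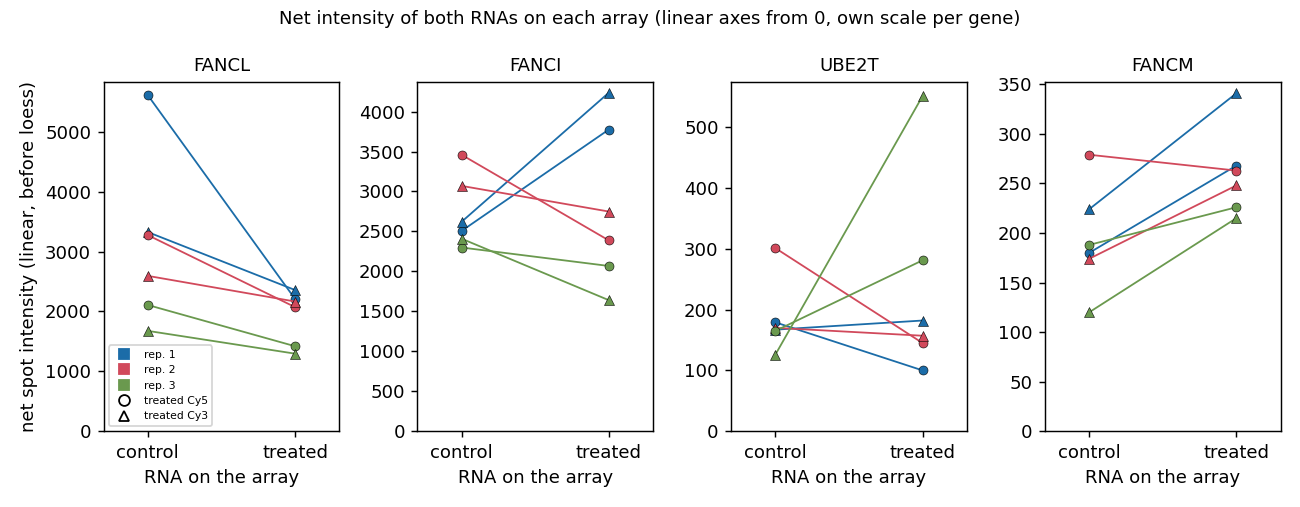
Net spot intensity (linear axis from 0, own scale for each gene) of control and treated RNA on each array, joined by a line, for FANCL, FANCI, UBE2T and FANCM; colours mark replicates, circles treated RNA in Cy5 and triangles treated RNA in Cy3. All 6 FANCL lines go down, from 1675 to 5608 in control RNA to 1295 to 2357 in treated RNA, while those of FANCI and UBE2T split by replicate.

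The other 5 probes named FANCL did not share this pattern, and none of them was kept. Of these, 3 were below the background cut-off on every array in both RNAs, EMBV3_14113 exceeded it on 1 array in control RNA, and EMBV3_24536 exceeded it on 1 array in each RNA. Their mean ratios ran from -0.11 to 0.18 and their single-array ratios from -0.37 to 0.43. The nearest to the pattern was EMBV3_35180, with a mean of -0.11 ± 0.21 (n = 3), which was lower on 5 arrays and stood at 0.16 on the remaining one. EMBV3_34516 was higher on 5 arrays, with a mean of 0.18 ± 0.14 (n = 3). With all 6 probes averaged and no filter, an alternative added after the values were seen, FANCL stood at -0.079 ± 0.061 (n = 3). The FANCL result therefore rests on 1 probe. In the whole annotation 27 genes had as many probes as FANCL; 3 of them, FANCL included, had 1 kept probe and 8 had every probe kept. The files pair probes with symbols and not with transcripts, so whether the 6 probes read the same FANCL transcript was not tested.

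**Figure D2:**
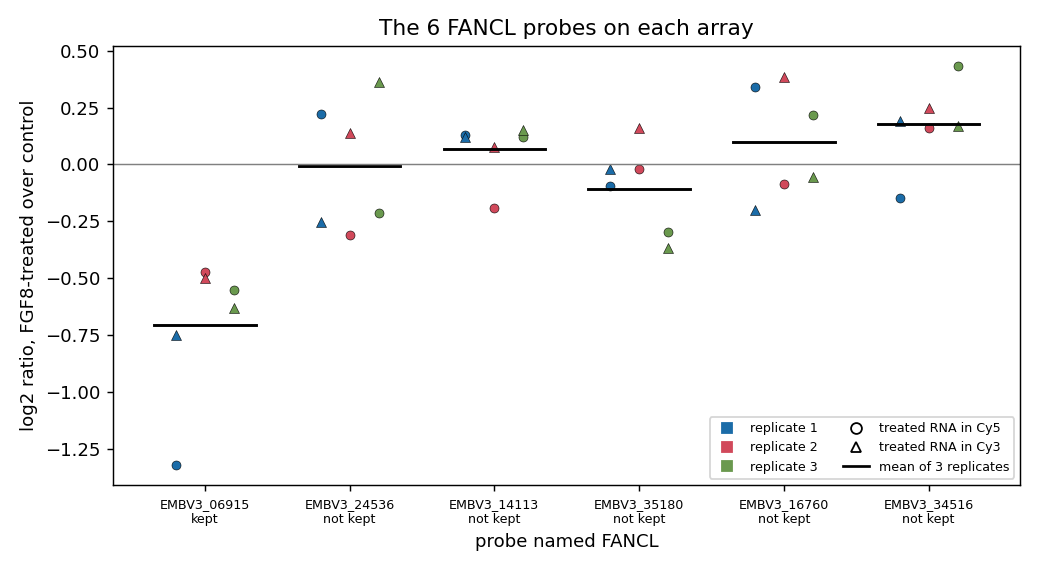
Log2 ratio of treated over control RNA (vertical axis) on each of the 6 arrays for the 6 probes named FANCL; colours mark replicates, symbols the dye of the treated RNA, and black lines the mean of 3 replicates. EMBV3_06915 lies below 0 on every array, with a mean of -0.70, and the other 5 means lie between -0.11 and 0.18.

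UBE2T, the ubiquitin-conjugating enzyme that works with FANCL, went opposite ways in different replicates. Its ratios were -0.07 and -0.31 in replicate 1, -0.47 and -0.64 in replicate 2, and 1.16 and 1.95 in replicate 3. Both arrays of replicate 3 were high and the other 4 arrays were below 0, a pattern of signs that 284 of 11190 genes (2.54%) had. In replicate 3 its net intensity was 281 in treated against 165 in control RNA, and 551 against 126 with the dyes swapped. The mean of 0.27 ± 1.13 (n = 3) turned to -0.37 without replicate 3. An SD as large as this over replicates was seen for 147 of 11190 genes (1.31%), where the median SD of a gene was 0.25. Recomputed from the scanner tables with normexp background correction on the mean foreground, the ratio of UBE2T was 0.22 ± 0.50 (n = 3).

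The substrate pair shared a pattern that FANCL did not have. FANCD2 had ratios of 0.29 and 0.33 in replicate 1, -0.35 and -0.55 in replicate 2, and -0.27 and -0.64 in replicate 3. FANCI had 0.63 and 0.45 in replicate 1, -0.36 and -0.38 in replicate 2, and -0.15 and -0.80 in replicate 3. Both genes were thus higher on both arrays of replicate 1 and lower on the other 4, as 369 of 11190 genes (3.30%) were. This pattern was picked out after the values were seen. Means were -0.20 ± 0.44 for FANCD2 and -0.10 ± 0.56 for FANCI (n = 3 each), smaller than the spread between replicates. Without replicate 1 they were -0.46 and -0.42, without replicate 2 they were -0.075 and 0.033, and without replicate 3 they were -0.072 and 0.084. Over the Cy5-treated orientation alone FANCI stood at 0.039.

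Of the core complex genes, FANCG was lower on 5 of 6 arrays and the other 3 had no common sign. FANCG, a scaffold within the complex that binds FANCA, had ratios of -0.14 and -0.16 in replicate 1, 0.13 and -0.57 in replicate 2, and -0.34 in both arrays of replicate 3. Its replicate means of -0.15, -0.22 and -0.34 were all below 0, with a mean of -0.24 ± 0.097 (n = 3). Recomputed from the scanner tables with normexp background correction, the ratio was -0.20 from the median foreground and -0.0047 from the mean foreground. Lower values on 5 or 6 arrays were found for 1414 of 11190 genes (12.6%). FANCG is the member just outside the condition that FANCL met, by its single value of 0.13.

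FANCA, a large subunit of the core complex, ranged from -0.36 to 0.66 over the arrays, with a mean of 0.069 ± 0.23 (n = 3). FANCE, which links the complex to FANCD2, ranged from -0.38 to 0.26, with a mean of 0.068 ± 0.24 (n = 3). FANCF, an adaptor that holds subunits together, ranged from -0.52 to 0.57, with a mean of 0.11 ± 0.41 (n = 3). In all 3 the replicates fell on both sides of 0. FANCF was close to background, above it on 4 arrays in treated and on 2 arrays in control RNA, and without replicate 3 its mean turned to -0.11.

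FANCM, the translocase that anchors the core complex at the fork, was higher in treated cells on all 6 arrays, opposite to FANCL. Its ratios were 1.13 and 0.23 in replicate 1, 0.42 and 0.04 in replicate 2, and 0.67 and 0.77 in replicate 3. The lowest was close to 0, and in replicates 1 and 2 the array with treated RNA in Cy5 was the higher of the pair. The mean was 0.54 ± 0.27 (n = 3), a level 1.46-fold higher in treated cells. Net intensity was higher in treated RNA on 5 of 6 arrays and was 263 against 279 in the remaining one. Recomputed with normexp background correction, the ratio was 0.50 from the median foreground and 0.18 from the mean foreground.

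**Figure D3:**
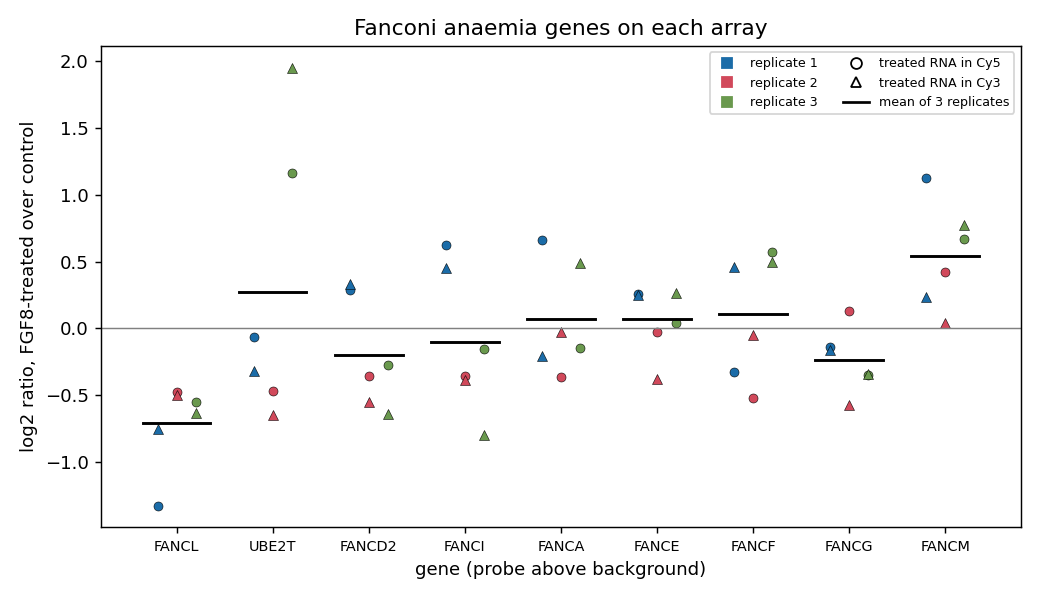
Log2 ratio of treated over control RNA (vertical axis) on each of the 6 arrays for the 9 genes with a kept probe; colours mark replicates, symbols the dye of the treated RNA, and black lines the mean of 3 replicates. FANCL lies below 0 and FANCM above 0 on every array, UBE2T is high in replicate 3 alone, and FANCD2 and FANCI are above 0 in replicate 1 alone.

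As a group the genes did not move 1 way. Over the 9 genes measured 4 means were below 0 and 5 above, and the median was 0.068, with replicate medians of 0.23, -0.28 and 0.15, beside 0.0054 over all 11190 genes kept. Lower values on all 6 arrays were met by 1 of the 9 (FANCL), beside 280 of all genes (2.50%), and higher values by 1 (FANCM), beside 391 (3.49%). A mean as low as that of FANCL was reached by 25 genes (0.223%), FANCL included, and one as high as that of FANCM by 161 (1.44%). The limma fit across all kept probes, with Benjamini-Hochberg adjustment, called 1 of 27210 probes (0.00368%) and 0 of the 9 genes, and entering the 6 arrays singly, with replicate as a random block, gave 15 called probes. At an unadjusted p under 0.05 there were 1345 probes (4.94%), 618 genes (5.52%) and 2 of the 9 genes, FANCL and FANCM. Because the genes were chosen through this contrast, nothing is read from these counts.

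**Figure D4:**
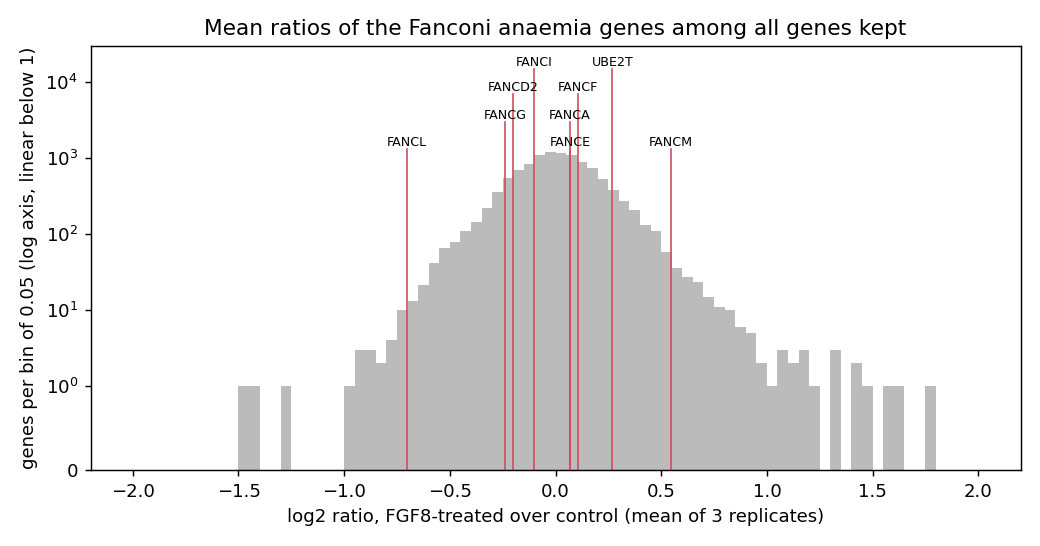
Number of genes (vertical axis, log scale) by mean log2 ratio of treated over control RNA (horizontal axis, bins of 0.05) for the 11190 genes kept, with red lines at the 9 Fanconi anaemia genes. FANCL at -0.70 lies in the lower tail, FANCM at 0.54 in the upper shoulder, and the other 7 between -0.24 and 0.27.

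The treatment cancels in the mean of Cy5 over Cy3 ratios, which measures the dye effect. Among the 8 genes other than FANCL, which were added for their place in the pathway, limma called a dye effect for 0, with adjusted p-values from 0.254 for FANCF to 0.947 for FANCA, beside 807 of 11190 genes (7.21%) and 2242 of 27210 probes (8.24%). At an unadjusted p under 0.05 there were again 0 of the 8, beside 2461 genes (22.0%). For FANCL the Cy5 over Cy3 ratio was -0.078 ± 0.18 (n = 3), given with no test because a ratio below 0 in both dye orientations was the condition of its choice. Its treatment ratio was -0.78 over the arrays with treated RNA in Cy5 and -0.63 over those with treated RNA in Cy3, and FANCM had 0.74 and 0.35.

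The wider pathway was described with 38 further genes, of which 33 had a probe and 27 a kept one. Means were below 0 for 14 and above 0 for 13, with a median of -0.014 beside 0.0054 over all genes, and limma called 0 of the 27, as of all 11190 genes, with 3 at an unadjusted p under 0.05 beside 618 of all genes (5.52%). Among the listed genes of homologous recombination, which rebuilds the broken strand from a sister copy, 2 were above background (XRCC2 and PALB2), and 5 had probes that were not kept (BRCA1, BRIP1, BARD1, RAD51C and RFWD3). The 7 checkpoint and single-stranded DNA genes, from ATR to RPA3, were all kept, with 4 means below 0 and 3 above. Of these ATRIP, with a mean of -0.15, was above background on 2 arrays in treated and on 4 in control RNA. It therefore passed the filter through the control RNA.

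Lower values on all 6 arrays were found for 3 of the 27 genes, beside the 2.50% of all genes given above. XRCC2, a protein of homologous recombination, had replicate means of -0.19, -0.44 and -0.41 and a mean of -0.35 ± 0.13 (n = 3), and its second probe stood at -0.14 ± 0.38. CHEK1, the kinase that ATR activates at stalled forks, had -0.23, -0.45 and -0.29 and a mean of -0.32 ± 0.12 (n = 3). USP1, the protease that takes ubiquitin off FANCD2, had -0.10, -0.16 and -0.21 and a mean of -0.16 ± 0.056 (n = 3), while its second probe, which was not kept, stood at 0.11. These shifts were smaller than that of FANCL. The same sign in each replicate by the brightest probe follows from being lower on all 6 arrays. With normexp on the median foreground CHEK1 was lower on 5 arrays. Net intensity was lower in treated RNA on 6 arrays for XRCC2, on 5 for CHEK1 and on 4 for USP1.

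At the lower end of the list CENPS, a histone-fold partner of FANCM, had a mean of -0.42 ± 0.31 (n = 3), but its other probes gave -0.16 and 0.019. At the upper end were FAN1, a nuclease drawn to ubiquitinated FANCD2, at 0.33 ± 0.84, and CENPX, the partner of CENPS, at 0.32 ± 1.20 (n = 3 each). Both took their position from replicate 3, where FAN1 had 1.28 against 0.043 and -0.33, and CENPX 1.67 against -0.64 and -0.057. That is the replicate in which UBE2T was high as well. REV3L, the catalytic subunit of a translesion polymerase, followed at 0.23 ± 0.60 (n = 3), with 0.84 in replicate 1 and -0.36 in replicate 2. Its other kept probes gave 0.11 and 0.19.

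**Figure D5:**
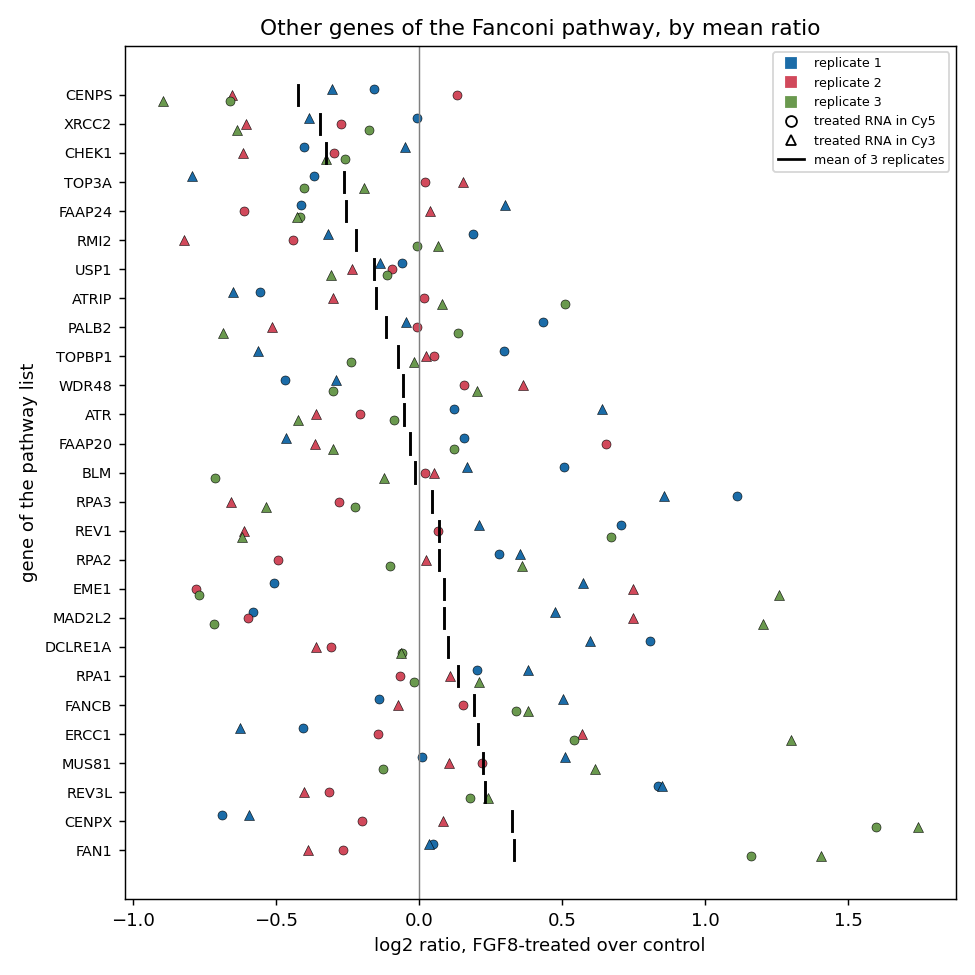
Log2 ratio of treated over control RNA (horizontal axis) on each of the 6 arrays for the 27 genes of the wider pathway list with a kept probe, ordered by mean; colours mark replicates, symbols the dye of the treated RNA, and black lines the mean of 3 replicates. XRCC2, CHEK1 and USP1 lie below 0 on every array, and EME1 and MAD2L2 split by dye.

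Since FANCD2, FANCI and UBE2T are read mainly in dividing cells, 16 markers of S phase and mitosis were set beside them. All 16 were above background. Their median ratio was 0.062, with replicate medians of 0.14, -0.16 and 0.15, and 0 of the 16 had the same sign on all 6 arrays. The pattern of FANCD2 and FANCI, higher on both arrays of replicate 1 and lower on the other 4, was present in 2 of the 16 and in 3 of the 27 pathway genes, beside the 3.30% of all genes. The part of cell division in the values of the Fanconi anaemia genes was not tested.

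The genes whose 6 ratios lay closest to those of FANCL were SCO2, a copper chaperone of cytochrome oxidase, NTN4, a secreted netrin, CDYL, a chromodomain corepressor, IFITM3, an interferon-induced membrane protein, and WDTC1, a WD-repeat protein. Their Euclidean distances over the 6 arrays were 0.36, 0.57, 0.60, 0.65 and 0.65, where the median over 11189 genes was 2.07. The 5 genes were picked for these small distances, so their closeness to FANCL is a description and carries no test. SCO2 had replicate means of -0.95, -0.38 and -0.52, near the -1.04, -0.49 and -0.59 of FANCL. Second probes differed: that of IFITM3 gave -0.53, while those of SCO2 and CDYL gave -0.031 and 0.094. WDTC1 was above background on 2 arrays in treated and on 5 arrays in control RNA, so it passed the filter through the control RNA. None of the 5 is on the pathway list.

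Genes next to FANCL on the chromosome did not share its values. In the ARS-UCD2.0 gene table the nearest annotated genes on either side are tRNA genes with no probe here, so the nearest protein-coding genes were added after that was seen. VRK2, a kinase gene whose annotated span overlaps that of FANCL, had replicate means of -0.27, 0.21 and 0.23 and a mean of 0.057 ± 0.29 (n = 3). BCL11A, a zinc finger repressor gene on one side, gave -0.20 and -0.0034 on its 2 kept probes, and CCDC85A on the other side had no kept probe. The brighter BCL11A probe was lower on 5 arrays, with replicate means of -0.27, -0.34 and 0.0095. In replicate 1, where FANCL was lowest, VRK2 was below 0 on both arrays as well.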

How the data were processed

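The authors deposited log2 ratios of treated over control RNA, a column per array; the steps behind them are not stated in any header or label. To find scale and direction, the columns were compared with the scanner values: every column matched the loess-normalized log2 ratio of median foreground minus median background at a correlation of 1.00 and a slope of 1.00, with the arrays that carry control RNA in Cy5 already turned. Column medians were 0.0025, 0.0030, 0.0018, -0.00085, 0.0063 and 0.0067. Raw intensity of foreground and local background in both dyes is held in the scanner tables, per the file headers. Per the labels' protocols, RNA was amplified in 2 rounds with T7 polymerase.

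The deposited ratios were used because the genes were chosen on them. The 143 probes marked as ignored were left out. Symbols came from the platform annotation (21790 probes with 1 symbol, 0 with several, 22004 with none), and 1524 were updated through synonyms; 241 matched no current symbol. STRA13 was read as CENPX, although the same name is also an alias of BHLHE40, so the identity of a probe so named is uncertain. Each of the 11190 genes was represented by its brightest kept probe. The mean of the dye swap in each of 3 replicates was compared with 0 in a two-sided moderated test (limma 3.58.1 in R 4.3.3), with Benjamini-Hochberg adjustment at 0.05. The fit was tested on simulated data with planted changes larger than any mean ratio of the members, so smaller changes were not covered. The members and lists were chosen with earlier results of these data known. Named pathway genes are the 3 highest and 3 lowest by mean and those with 1 sign on all 6 arrays; the 5 genes nearest to FANCL were named by distance.

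Treated and control RNA of a replicate number share arrays, so the numbers pair them. In separate channels, deviations from the group means correlated at 0.198, 0.375 and 0.439 within numbers. Between different numbers they correlated at -0.403 to 0.117. The channels of a number share arrays, so these correlations are no test of the pairing. As the deposited array names read, replicate 1 was on slides of its own and replicates 2 and 3 shared 1; no label states the slide. Across kept probes, replicate means correlated at 0.010, -0.0099 and 0.110, and the swapped arrays of a replicate at 0.474, -0.107 and 0.450. The number of arrays and the low agreement between replicates limit the precision. The background cut-offs were intensities of 97.4 to 149.4 in Cy5 and 94 to 173.2 in Cy3. Alternatives were other background correction and foreground statistics, scaling, filter, probe choice, dye orientation, a replicate block and leaving out replicates.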

Additional observations from a re-analysis of the deposited data

Results flagged for a closer look

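Among the genes of the pathway list, 4 of 27 differed between the dye orientations in limma, beside 807 of all 11190 genes (7.21%) and 0 of the 8 Fanconi anaemia genes other than FANCL. EME1, the partner of the nuclease MUS81, had a Cy5 over Cy3 log2 ratio of -0.77 ± 0.24 (n = 3, limma adjusted p = 0.000111), so its treatment ratio was -0.68 on the arrays with Cy5-labelled treated RNA and 0.86 on the swapped arrays. MAD2L2, a subunit of translesion polymerase zeta, had -0.72 ± 0.22 by its brightest probe (n = 3, limma adjusted p = 0.000199), with treatment ratios of -0.63 and 0.81. Its kept probes EMBV3_00098 and EMBV3_12316 gave Cy5 over Cy3 ratios of -0.75 and -0.55. The dimmer kept probes EMBV3_24833, EMBV3_23984 and EMBV3_31347 gave -0.096, -0.19 and -0.097, with no dye effect called. REV1, a translesion polymerase, had 0.41 ± 0.21 (n = 3, limma adjusted p = 0.0169), and FAAP20, a ubiquitin-binding protein of the core complex, 0.34 ± 0.15 (n = 3, limma adjusted p = 0.0365). The mean of both orientations, in which a dye effect cancels, was 0.088 for EME1 and MAD2L2, 0.071 for REV1 and -0.032 for FAAP20. Groups of arrays with 1 dye orientation hold 3 arrays each and were not searched for outlying arrays.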

How the results depend on the processing

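The FANCL ratio, whose sign on each array its choice fixed, was -0.81 to -0.54 with a replicate left out, -0.52 with normexp on the mean foreground, and -0.079 with all 6 probes averaged and no filter, where 5 probes that were not kept enter the mean. The fit called 0 probes with normexp on the median or on the mean foreground, 10 on arrays with treated RNA in Cy5, 15 on 6 arrays with the replicate block, whose residual degrees of freedom come from arrays, and 0 to 1 with a replicate left out (0 without replicate 2). Probes with a dye effect numbered 1272 to 2153 with a replicate left out, 1272 without replicate 2. Genes lower on all arrays used numbered 1810 and 1730 on the 3 arrays of each orientation and 832 to 1190 with a replicate left out, since fewer arrays have to share a sign; genes higher numbered 626 with normexp on the mean foreground. The median of the Fanconi anaemia genes lay between -0.072 and 0.199 with a replicate left out, and that of the pathway list between -0.074 and 0.063, above 0 without replicate 2; the cause was not tested. FANCG stood at -0.12 and -0.36 in the 2 orientations. Spots near background limit FANCF, ATRIP, WDTC1 and the 5 other FANCL probes. FANCA was also dim, above background on 5 arrays in treated and on 6 in control RNA, and so was FANCG, with net intensities of 114 to 244. UBE2T had net intensities of 100 to 301 apart from treated RNA of replicate 3.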
